A study of Mus musculus with 6 samples.

Results

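A set of 7 genes that restrain the cell cycle was followed in mouse tongues at embryonic day 14.5: the cyclin-dependent kinase inhibitor genes Cdkn1b, Cdkn1c, Cdkn2a, Cdkn2b, Cdkn2c and Cdkn2d, and Rb1. They were listed by name, and every probe set whose only gene symbol in the platform annotation is one of these was taken, which gave 9 probe sets of 45101 for the 7 genes of 18193 with a probe set of their own. The mutants were Tgfbr2 fl/fl; Wnt1-Cre embryos (3 tongues), in which Wnt1-Cre recombines the floxed gene of the type II TGF-beta receptor in the neural crest and its descendants, and the controls were Tgfbr2 fl/fl embryos without Cre (3 tongues), which the titles call wildtype. All carried the floxed alleles and the strain label C57BL/6J. Wnt1-Cre does not act in the muscle fibres, the surface epithelium, the endothelium or the blood cells of the tongue, which keep the receptor gene, so each array mixes recombined and unrecombined cells. Total RNA of each tongue was hybridised to an Affymetrix expression array, and the values are log2 expression as the authors normalised it. The design text sets the comparison against the small tongue of these mutants and asks what TGF-beta signalling controls as tongue muscle develops. The labels do not say that the tongues came from separate litters, so the p-values refer only to the spread over these 6 tongues.

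The inhibitors act at the step from the first gap phase of the cell cycle to DNA synthesis. The INK4 proteins, encoded by Cdkn2a to Cdkn2d, bind the kinases Cdk4 and Cdk6 and keep them from cyclin D, whereas the CIP/KIP proteins, among them those of Cdkn1b and Cdkn1c, bind cyclin and kinase together and act mainly on Cdk2. Both leave the retinoblastoma protein, the product of Rb1, unphosphorylated, and in that state it holds the E2F factors that switch on replication genes. In cultured epithelial cells TGF-beta induces Cdkn2b through Smad proteins and lowers Myc, and in muscle cells that leave the cycle Cdkn1c, Cdkn2c and Rb1 are known parts of the exit.

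Of the 7 genes, Cdkn2b rose in the mutants, 2.07-fold, and no other member passed the test. Limma with Benjamini-Hochberg adjustment over 13645 genes, at a threshold of 0.05, called 1 of the 6 members tested, and 2.14% of all genes tested (1.32% higher in the mutants, 0.821% lower). A gene was tested if its brightest probe set averaged at least 5.17 over the 6 arrays, which left out the dimmest 25% of genes and, among the members, Cdkn2a. An unadjusted p under 0.05 was found for 2 of the 6 (Cdkn2b and Cdkn2c) and for 16.9% of all genes. The same 2 had mutant and control arrays that did not overlap, as had 25.1% of all genes. The median log2 difference, mutant minus control, was -0.093 over the 6 members and 0.016 over all genes.

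**Figure D1:**
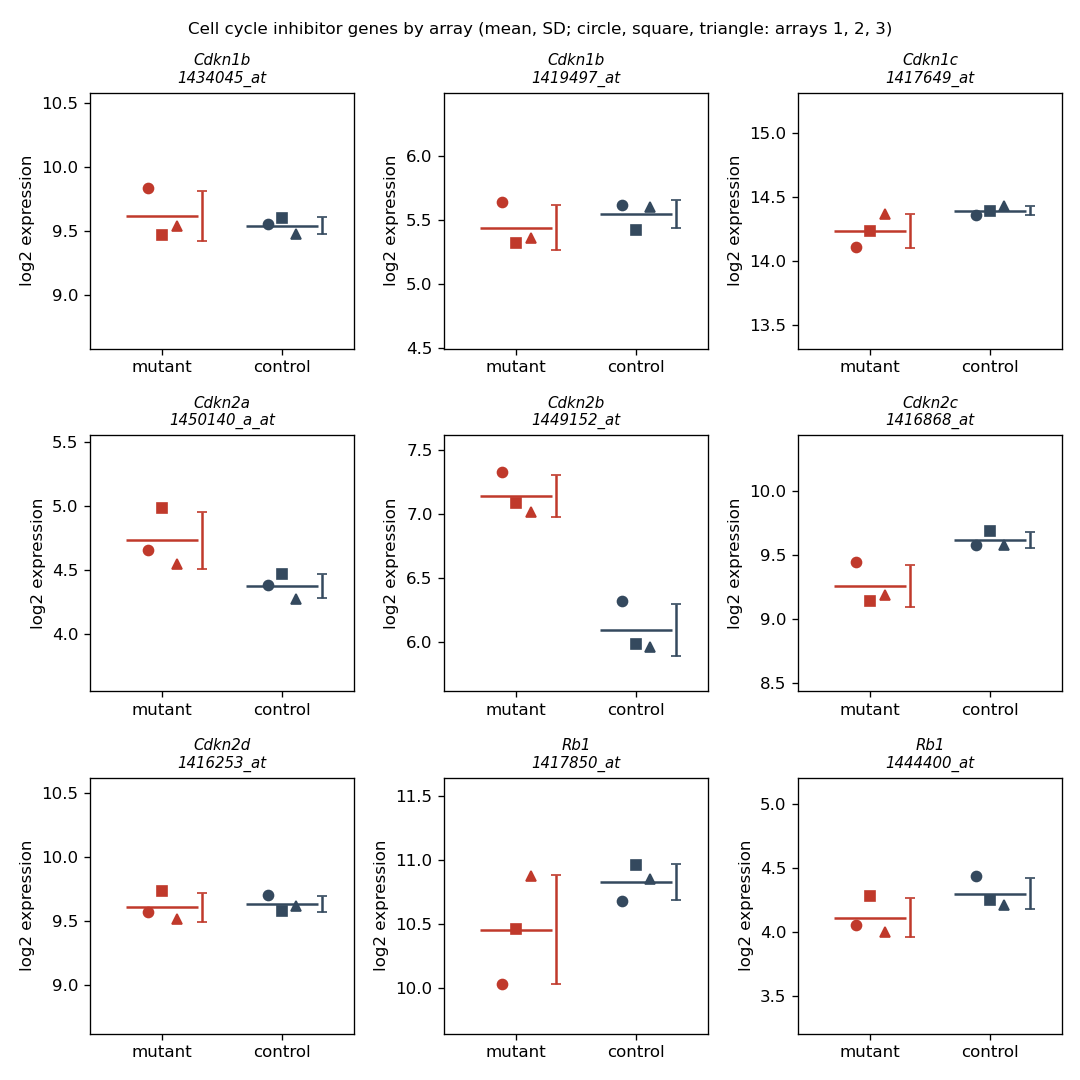
Log2 expression of the 9 probe sets of the 7 genes on each array, mutants (red) left of controls (blue), with the group mean as a line and the SD as a bar. Each panel spans the same 2 log2 units, and the Cdkn2b panel is the one with the widest gap, with mutants at 7.01 to 7.33 and controls at 5.96 to 6.32.

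Mutant array 1 lay apart from the others. Its Pearson correlations over genes with the other 5 arrays were 0.966 to 0.978, against 0.9924 between mutant arrays 2 and 3 and 0.994 to 0.998 among the controls. Results on the members and the counts of calls that move with it are given without it as well. Without it 4.91% of the genes tested were called, and with the replicate number as a block 3.59%. Tgfbr2 itself averaged 11.54 ± 0.34 in the mutants and 11.72 ± 0.15 in the controls (SD, n = 3 each; log2 difference -0.18, adjusted p = 0.642 by limma). The sources used here do not say which exon its probes read, so the labels are not checked by this value. Sex was read from Xist and Y-linked genes: mutant arrays 1 and 3 and control array 1 had high Xist, and the other 3 arrays high Y-linked values.

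Cdkn2b encodes p15Ink4b, the INK4 inhibitor best known as a TGF-beta target in epithelial cells. It read 7.33, 7.08 and 7.01 on mutant arrays 1, 2 and 3, against 6.32, 5.98 and 5.96 on control arrays 1, 2 and 3. The lowest mutant stood 0.69 above the highest control, and within either group the arrays spread over 0.31 (mutants) and 0.36 (controls). The means were 7.14 ± 0.16 in the mutants and 6.09 ± 0.20 in the controls (SD, n = 3 each), a log2 difference of 1.05 with a standard error of 0.14 (adjusted p = 0.0150, limma). The 95% interval of the difference was 0.73 to 1.37, which is 1.66-fold to 2.58-fold. By p it was number 74 of the genes tested, and by size number 62 of the 180 called higher.

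The rise of Cdkn2b was similar without mutant array 1 (log2 difference 0.96, adjusted p = 0.00976), and it held with sex as a covariate (0.98, adjusted p = 0.0312). Among the arrays with high Xist the mutants read 7.33 and 7.01 and the control 6.32, and among the others the mutant read 7.08 and the controls 5.98 and 5.96. The call did not hold without mutant array 2 (adjusted p = 0.0581), without control array 2 (0.09999) or without control array 3 (0.0973), where the log2 difference was 1.08, 0.999 and 0.987. So the size of the difference moved little when any array was left out, between 0.96 and 1.17, while the adjusted p crossed the threshold. In bulk tissue a change in the number of cells of a type and a change in RNA per cell cannot be told apart.

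Cdkn2a shares the locus with Cdkn2b on mouse chromosome 4, and in the RefSeq gene table (GRCm38.p6) it is the next gene that the array measures on one side of Cdkn2b. It encodes p16Ink4a and, from another first exon and reading frame, p19Arf, a protein that restrains Mdm2. Its only probe set was dim, at 4.66, 4.98 and 4.55 on mutant arrays 1, 2 and 3, against 4.38, 4.47 and 4.28 on control arrays 1, 2 and 3. The lowest mutant was 0.083 above the highest control, so the groups did not overlap but nearly touched. All 6 values lie under the filter value of 5.17, where the authors' normalisation compresses differences. In the fit of all 18193 genes without a filter the log2 difference was 0.35 (standard error 0.13, adjusted p = 0.248, limma), which did not pass. The difference was 0.39 without mutant array 1 (adjusted p = 0.192, limma) and 0.23 without mutant array 2. The probe set name marks probes shared by transcripts of 1 gene, and whether it reads p16Ink4a, p19Arf or both was not tested.

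Other genes around Cdkn2b, looked up after its value was seen, did not pass. Mtap, an enzyme gene of the methionine salvage pathway that lies beyond Cdkn2a, read 10.58 to 10.76 in the mutants, against 10.77 to 10.82 in the controls (log2 difference -0.095, adjusted p = 0.623, limma). Dmrta1, the next measured gene on the other side, was listed at 3.55 to 3.79 in the mutants, against 3.18 to 3.48 in the controls, all under the filter value (log2 difference 0.33, adjusted p = 0.224 without the filter).

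The start sites of Cdkn2b, Cdkn2a and Cdkn2c are shown because these are the 3 members whose mutant and control arrays did not overlap. That was so for 25.1% of all genes tested, and Cdkn2a was under the filter value, so the choice does not single these genes out. Each window holds the 250 bases before a RefSeq start site in GRCm38.p6, on the minus strand of chromosome 4, written 5′ to 3′. Capitals mark the letters GGGCGG, the core of the Sp1-type GC box, and CAGAC, the Smad box, on either strand (CCGCCC and GTCTG). Cdkn2a is shown for both of its listed start sites, which lie in front of different first exons, and so is Cdkn2c.
Cdkn2b, chr4:89311033-89311282: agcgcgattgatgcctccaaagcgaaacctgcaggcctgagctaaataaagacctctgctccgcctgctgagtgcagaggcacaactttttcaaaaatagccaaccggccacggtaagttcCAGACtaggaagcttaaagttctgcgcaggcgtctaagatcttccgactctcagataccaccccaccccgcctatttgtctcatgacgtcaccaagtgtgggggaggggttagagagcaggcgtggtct
Cdkn2a, outer start, chr4:89294620-89294869: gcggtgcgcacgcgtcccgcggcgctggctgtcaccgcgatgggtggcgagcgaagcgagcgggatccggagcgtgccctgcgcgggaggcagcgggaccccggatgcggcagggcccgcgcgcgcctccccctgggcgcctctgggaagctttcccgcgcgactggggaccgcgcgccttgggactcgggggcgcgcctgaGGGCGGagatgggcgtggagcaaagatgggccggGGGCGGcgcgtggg
Cdkn2a, inner start, chr4:89282193-89282442: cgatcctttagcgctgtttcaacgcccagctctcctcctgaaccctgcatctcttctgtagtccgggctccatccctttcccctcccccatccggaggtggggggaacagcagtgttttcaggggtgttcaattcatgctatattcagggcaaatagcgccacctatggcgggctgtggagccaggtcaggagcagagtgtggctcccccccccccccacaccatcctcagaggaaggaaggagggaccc
Cdkn2c, outer start, chr4:109666757-109667006: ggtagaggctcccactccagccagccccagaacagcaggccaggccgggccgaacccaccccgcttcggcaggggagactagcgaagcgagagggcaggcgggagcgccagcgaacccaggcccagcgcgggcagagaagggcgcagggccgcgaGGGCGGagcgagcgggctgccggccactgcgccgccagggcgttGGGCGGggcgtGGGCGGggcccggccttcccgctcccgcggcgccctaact
Cdkn2c, inner start, chr4:109665373-109665622: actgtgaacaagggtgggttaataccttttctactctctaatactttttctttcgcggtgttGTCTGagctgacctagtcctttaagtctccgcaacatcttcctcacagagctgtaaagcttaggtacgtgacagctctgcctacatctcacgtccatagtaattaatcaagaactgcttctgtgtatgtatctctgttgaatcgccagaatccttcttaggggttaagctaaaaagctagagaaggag

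The Cdkn2b window held 1 CAGAC, beginning 129 bases before the start site, and 0 GGGCGG, and the inner Cdkn2c window likewise held 1 Smad box, as GTCTG, and 0 GC boxes. The outer Cdkn2a window held 2 GGGCGG and the outer Cdkn2c window 3, with 0 Smad boxes in either, and the inner Cdkn2a window held 0 of both. The counts of the Cdkn2b window therefore equal those of the inner Cdkn2c window and differ from those of the outer one. No marked letters overlap. Over 32851 windows of the same length, 42.2% held CAGAC or GTCTG and 32.7% held GGGCGG or CCGCCC, so these letters are common in front of genes. The E-box CACGTG (6.02% of windows), the E2F forms TTTCGCGC (0.256%) and TTTGGCGC (0.417%) and the Fox letters TGTTTAC (3.17%), searched on both strands, were in none of the 7 windows listed for Cdkn1b, Cdkn2a, Cdkn2b, Cdkn2c and Cdkn2d. The base composition differed as well: 53.6% of the Cdkn2b window was G or C, against 78.4% and 60% of the outer and inner Cdkn2a windows and 77.2% and 42.8% of the outer and inner Cdkn2c windows. A match is a description of letters and says nothing of a factor bound there.

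Cdkn2c encodes p18Ink4c, an INK4 inhibitor that accumulates as muscle cells differentiate. It read 9.45, 9.14 and 9.19 on mutant arrays 1, 2 and 3, against 9.58, 9.69 and 9.58 on control arrays 1, 2 and 3. All mutants were below all controls, with a gap of 0.13 between the groups. The means were 9.26 ± 0.16 in the mutants and 9.62 ± 0.063 in the controls (SD, n = 3 each), and the log2 difference was -0.36 with a standard error of 0.11 (unadjusted p = 0.0116, adjusted p = 0.157, limma), which did not pass. The 95% interval corresponds to a level 1.08-fold to 1.53-fold lower in the mutants. Mutant array 1 was the mutant nearest to the controls, and without it Cdkn2c passed (log2 difference -0.45, adjusted p = 0.0252). It passed as well when limma weighted the arrays by quality (-0.45, adjusted p = 0.0177). In these fits 670 and 1034 of the 13645 genes tested were called, against 292 as reported. The differences from these fits are alike, and how far the weights discount mutant array 1 was not tested. Both differences of Cdkn2c go below 0, whereas that of its relative Cdkn2b goes above 0.

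Cdkn2d, which encodes p19Ink4d, an INK4 inhibitor known for keeping sensory hair cells of the inner ear out of the cycle, read 9.57, 9.73 and 9.51 on mutant arrays 1, 2 and 3, against 9.70, 9.58 and 9.62 on control arrays 1, 2 and 3. The groups overlapped over their whole range. The log2 difference was -0.028 (adjusted p = 0.908, limma), with a 95% interval of -0.25 to 0.20, so a change beyond 1.19-fold in either direction lies outside it. Without mutant array 1 the difference was -0.0082.

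**Figure D2:**
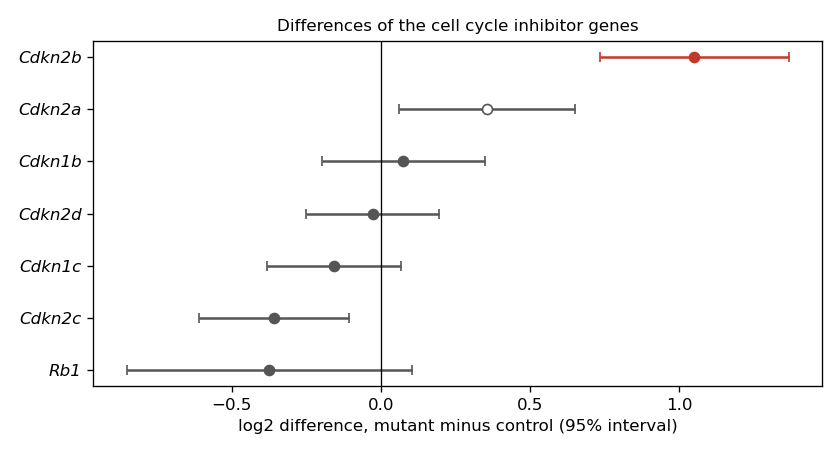
Log2 difference, mutant minus control, of the 7 genes with 95% intervals from limma, ordered from the highest at the top. Cdkn2b (red) is the call, at 1.05; Cdkn2a (open point) comes from the fit without a filter; the intervals of Cdkn1b, Cdkn2d, Cdkn1c and Rb1 cross 0.

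The CIP/KIP genes of the set, Cdkn1b and Cdkn1c, did not pass. Cdkn1b encodes p27Kip1, an inhibitor whose protein level is set largely by degradation. Its brighter probe set read 9.84, 9.47 and 9.54 on mutant arrays 1, 2 and 3, against 9.55, 9.60 and 9.47 on control arrays 1, 2 and 3. Mutant array 1 was the highest of the 6, and the other arrays were intermixed. The log2 difference was 0.074 (95% interval -0.20 to 0.35, adjusted p = 0.784, limma) and its sign turned without mutant array 1 (-0.037). The dimmer probe set read 5.64, 5.32 and 5.36 in the mutants, against 5.62, 5.42 and 5.60 in the controls (log2 difference -0.11), so the probe sets differ in sign and both overlap between the groups.

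Cdkn1c, encoding p57Kip2, is an imprinted gene expressed from the maternal copy and a marker of cells leaving the cycle in muscle, cartilage and other embryonic tissues. It read 14.11, 14.24 and 14.37 on mutant arrays 1, 2 and 3, against 14.36, 14.40 and 14.43 on control arrays 1, 2 and 3. The highest mutant was above the lowest control by less than 0.01, and the log2 difference was -0.16 (95% interval -0.38 to 0.068, adjusted p = 0.455, limma). Without mutant array 1 it was -0.093. The highest value of any probe set on any array was 14.93, so Cdkn1c was read close to the top of the scale, and whether its probes were near saturation was not tested.

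Rb1, the target at the end of this pathway, read 10.03, 10.46 and 10.88 on mutant arrays 1, 2 and 3, against 10.68, 10.96 and 10.85 on control arrays 1, 2 and 3. Mutant array 1 was lowest, mutant array 3 lay among the controls, and the mutants spread over 0.85 against 0.28 for the controls. The log2 difference was -0.38 with a standard error of 0.20 (95% interval -0.85 to 0.10, adjusted p = 0.405, limma), the widest interval among the members, and it was -0.16 without mutant array 1 and -0.58 without mutant array 3. A dim probe set of Rb1 read 4.05, 4.28 and 3.997 in the mutants, against 4.43, 4.25 and 4.21 in the controls, with a log2 difference of -0.19. Both probe sets were lower on average in the mutants and overlapped between the groups.

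**Figure D3:**
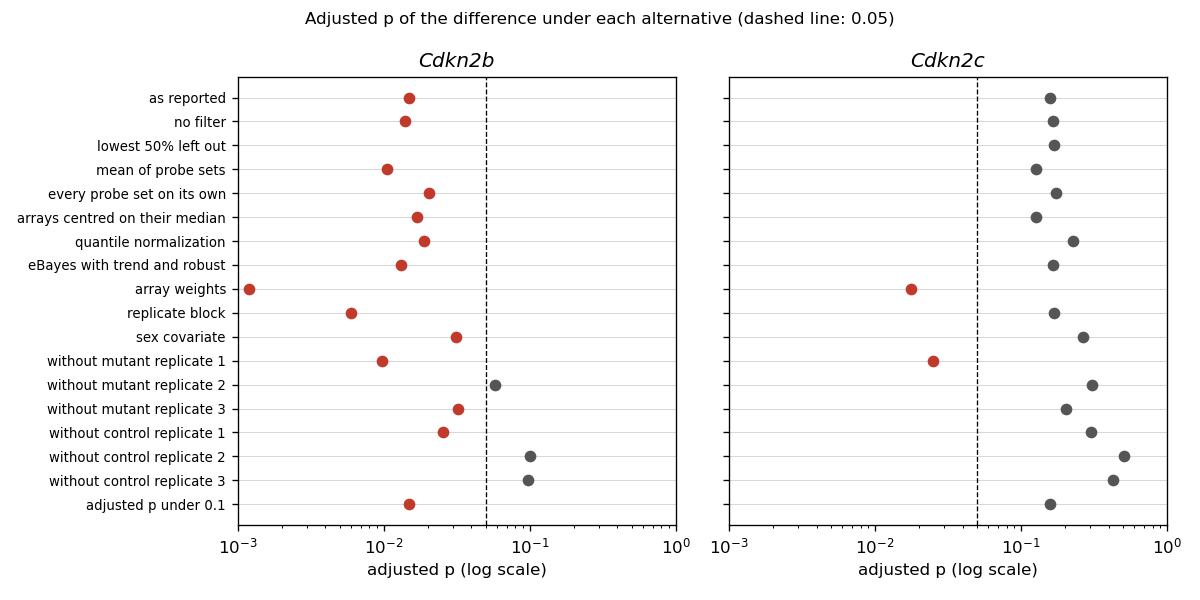
Adjusted p (log axis) of Cdkn2b and Cdkn2c as reported and under each alternative, with the threshold of 0.05 dashed and values under it in red. Cdkn2b stayed under the threshold except without mutant array 2, control array 2 or control array 3, and has no value with the lowest 50% of genes left out; Cdkn2c went under it without mutant array 1 and with array weights.

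The genes with the pattern most like that of Cdkn2b over the 6 arrays, by root mean square distance after each gene was centred on its own mean, were Stmn3, C1qa and Tbx22. Stmn3, a stathmin gene of neurons, was at a distance of 0.031 log2 units and read 9.04, 8.86 and 8.70 on mutant arrays 1, 2 and 3, against 8.06, 7.67 and 7.69 on control arrays 1, 2 and 3. C1qa, a complement gene of macrophages, was at 0.095, and Tbx22, a T-box gene of palate and tongue mesenchyme, at 0.11. Their log2 differences were 1.06, 1.05 and 0.95 (adjusted p = 0.0164, 0.0152 and 0.0487, limma). Since they were chosen for likeness over these 6 arrays, their order over the arrays and the arrays on which their calls rest are largely fixed by that choice. Tbx22 lost its call in 9 of 17 alternatives, among them arrays centred on their median (0.0554) and the sex covariate (0.0766), and Stmn3 and C1qa lost theirs without mutant array 2, control array 2 or control array 3.

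Most markers of epithelium, macrophages and nerve had higher means in the mutants, as had Cdkn2b. Epithelium and macrophages lie outside the recombined lineage, whereas Schwann cells come from the neural crest. Of 10 epithelial markers, all tested, 10 had a higher mean in the mutants and 0 passed limma (8 at an unadjusted p under 0.05); the log2 of their summed level was 14.55 to 15.24 in the mutants, against 14.21 to 14.31 in the controls. Krt14, a basal keratin gene, gave 0.94 (adjusted p = 0.0605, and 0.0315 with the replicate number as a block). Of the list, 3 passed with that block, 2 without mutant array 1 and 4 without mutant array 3. Of all 13645 genes tested 490, 670 and 242 were called in those fits, against 292 as reported. Of 9 macrophage markers, all tested, 8 had a higher mean and 3 rose, the C1q genes C1qa, C1qb and C1qc, with a summed level of 11.35 to 11.48 in the mutants, against 10.95 to 11.16 in the controls. Aif1, Cd68 and Ptprc gave log2 differences of 0.57, 0.54 and 0.23 (adjusted p = 0.0861, 0.185 and 0.419, limma). Csf1r, Cx3cr1 and Adgre1, named after their values were seen, gave 0.020, -0.0063 and 0.19 (adjusted p = 0.969, 0.988 and 0.453, limma). Of 10 Schwann cell and neuron markers tested, 9 had a higher mean and 1 rose (Stmn2, another stathmin gene, by 1.07, adjusted p = 0.0272), with a summed level of 12.10 to 12.58 in the mutants, against 11.90 to 12.09 in the controls. The count of these that passed was 3 with the block, 6 without mutant array 1 and 0 without mutant array 2 or mutant array 3. The part of these cells in the Cdkn2b difference was not tested.

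The medians by array of each gene's value minus its control mean show how these lists stand beside Cdkn2b, which was at 1.24, 0.99 and 0.92 on mutant arrays 1, 2 and 3. The epithelial median was 1.10, 0.58 and 0.31 on those arrays, the macrophage median 0.50, 0.34 and 0.43, and the neuron and Schwann cell median 0.16, 0.60 and 0.80. The epithelial median thus fell from mutant array 1 to mutant array 3, as Cdkn2b did, and the neuron and Schwann cell median rose. The neuron gene Stmn3 fell too, at 1.23, 1.05 and 0.90, as did the macrophage gene C1qa, at 1.29, 1.02 and 0.83. Both genes were chosen for their likeness to Cdkn2b. Which cells hold the Cdkn2b RNA was not tested.

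**Figure D4:**
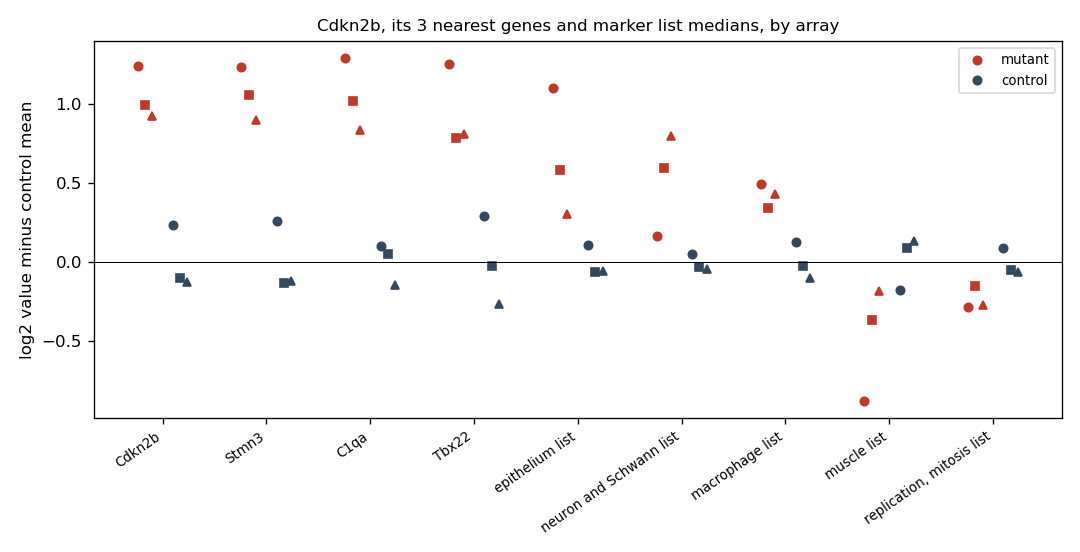
Log2 values minus the control mean on each array for Cdkn2b, its 3 nearest genes and the medians of 5 lists, mutants (red) left of controls (blue), with circle, square and triangle for arrays 1, 2 and 3. Cdkn2b and its nearest genes lie between 0.78 and 1.29 in the mutants, and the muscle list lies lowest on mutant array 1, at -0.88.

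Skeletal muscle markers had lower means in the mutants, as had Cdkn2c and Rb1. Of 15, all tested, 13 had a lower mean in the mutants and 0 passed limma (7 at an unadjusted p under 0.05), with a median of -0.47; the log2 of their summed level was 15.94 to 16.41 in the mutants, against 16.40 to 16.69 in the controls. Their median by array was lowest on mutant array 1 (-0.88), as was Rb1, whereas Cdkn2c was highest there among the mutants. A low value on that array was not particular to muscle. The endothelial median (-0.88) and the mesenchymal median (-0.35) were lowest there too, whereas the epithelial and macrophage medians were highest there. With the replicate number as a block 5 of the 15 passed, as did 4 with array weights and 2 without control array 1. Of all 13645 genes tested 490, 1034 and 142 were called in these fits, against 292 as reported. The part of muscle in the values of Cdkn2c and Rb1 was not tested. Of 10 mesenchymal genes 2 rose (Lum and Dcn), whereas 7 had a lower mean in the mutants (median -0.13). Of 4 tested cartilage genes 1 rose (Col9a1), whereas the other 3 had a lower mean (median -0.085). Of 8 endothelial genes 7 had a lower mean in the mutants (median -0.38), 4 did not overlap between the groups and 0 passed. Of these 8, 1 had an unadjusted p under 0.05, and 1 passed without mutant array 1. Of 5 tested red cell genes 4 had a lower mean (median -0.18) and 0 passed (1 at an unadjusted p under 0.05, and 1 passed without mutant array 1).

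The calls of these markers depend on single arrays and on the fit. Those of Lum, Dcn, Col9a1, C1qa, C1qb, C1qc and Stmn2 were all lost without control array 2 and without control array 3, and all but that of Lum were lost without mutant array 2. Without control array 1 the calls of Lum, Dcn, C1qb, C1qc and Stmn2 were lost. Without mutant array 3 those of Dcn, Col9a1, C1qc and Stmn2 were lost. With the sex covariate the adjusted p was 0.0613 for Dcn, 0.0693 for Col9a1, 0.0719 for Stmn2, 0.112 for C1qb and 0.0779 for C1qc. With the mean of probe sets it was 0.0589 for Dcn, 0.0683 for Col9a1 and 0.0707 for Stmn2, where the log2 differences of Dcn and Col9a1 were 0.41 and 0.57, against 0.65 and 0.87 with the brightest probe set. C1qb also missed with arrays centred on their median (0.055), after quantile normalization (0.0576), with every probe set on its own (0.0613) and with the lowest 50% of genes left out (0.0569). Of 2 tested liver genes 0 passed, with 0 at an unadjusted p under 0.05. All muscle, mesenchymal and epithelial markers listed were above the filter value.

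Most of the genes listed for the step at which the inhibitors act had lower means in the mutants, without calls in the reported fit. Of 22 cyclin, kinase, pocket protein and E2F genes of the entry into DNA synthesis, 16 had a lower mean and 0 passed limma (6 at an unadjusted p under 0.05), with a median log2 difference of -0.13. The leading values were those of Ccne1, encoding cyclin E1 (-0.60, adjusted p = 0.0599), E2f2 (-0.62, adjusted p = 0.0777) and Ccna2, encoding cyclin A2 (-0.42, adjusted p = 0.119). With the replicate number as a block Ccne1 and E2f2 passed (0.0375 and 0.0324). Under array weights Ccne1, E2f2 and Ccna2 passed (0.0402, 0.0154 and 0.0375). When all probe sets of a gene were averaged, Ccne1 fell by more and passed (-0.71, 0.00671). E2f2 and Ccna2 did not pass in that way (0.0656 and 0.0868). Cdk4 and Cdk6, the kinases that INK4 proteins bind, differed by -0.0038 and 0.13 (adjusted p = 0.989 and 0.657), where Cdk6 gave 0.28 without mutant array 1 and 0.023 without mutant array 3, and Ccnd1, encoding cyclin D1, by 0.085 (0.807); these 3 were named after their values were seen.

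Of 22 tested genes of DNA replication and mitosis, 21 had a lower mean in the mutants, 15 did not overlap between the groups (25.1% of all genes) and 1 fell (0.821% of all genes). That was Rrm2, a ribonucleotide reductase gene, which read 11.66 ± 0.13 in the mutants and 12.32 ± 0.039 in the controls (SD, n = 3 each; log2 difference -0.66, adjusted p = 0.0232, limma). The call was lost with the sex covariate (0.0672) and without mutant array 2 (0.0544) or any 1 control array (0.0847, 0.134 and 0.128). The median of the list was -0.24, and 3 passed without mutant array 1.

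Of 22 tested genes listed as regulators of the inhibitors, 1 rose and 0 fell, and 4 passed without mutant array 1. The list includes Cdkn1a, which is itself an inhibitor gene outside the set of 7. Klf4, a zinc finger factor gene linked to growth arrest, read 11.49 ± 0.025 in the mutants and 11.07 ± 0.035 in the controls (SD, n = 3 each; log2 difference 0.42, adjusted p = 0.0476, limma), and it kept the call in 6 of 17 alternatives (adjusted p = 0.0779 with the replicate number as a block, 0.0664 with arrays centred on their median). Skp2, which marks p27Kip1 for degradation, read 11.04, 11.32 and 11.59 on mutant arrays 1, 2 and 3, against 12.05, 12.05 and 11.85 on control arrays 1, 2 and 3 (log2 difference -0.67, adjusted p = 0.0777). It passed without mutant array 1 (0.0462) and without mutant array 3 (0.0452). Cdkn1a, the CIP/KIP gene under p53 control, gave 0.32 (adjusted p = 0.179, and 0.0368 without mutant array 1), and Mycn gave -0.43 (0.164; -0.17 with the mean of its probe sets). Myc, which TGF-beta lowers in epithelial cells, gave -0.16 (0.444), and the Polycomb genes Bmi1 and Ezh2, which silence the Cdkn2a locus, gave -0.010 and -0.081 (0.981 and 0.685); these 3 were named after their values were seen.

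Cdkn1c lies in an imprinted domain, and of 23 tested imprinted genes, Cdkn1c among them, 0 passed limma and 2 had an unadjusted p under 0.05. Their median was -0.084. The leading values were those of Sgce (0.40, adjusted p = 0.103; 0.18 with the mean of its probe sets), Peg10 (-1.05, adjusted p = 0.177) and Osbpl5, a gene near Cdkn1c (0.21, adjusted p = 0.3001). Peg10 passed with the replicate number as a block (0.0239) and without mutant array 3 (0.0412).

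**Figure D5:**
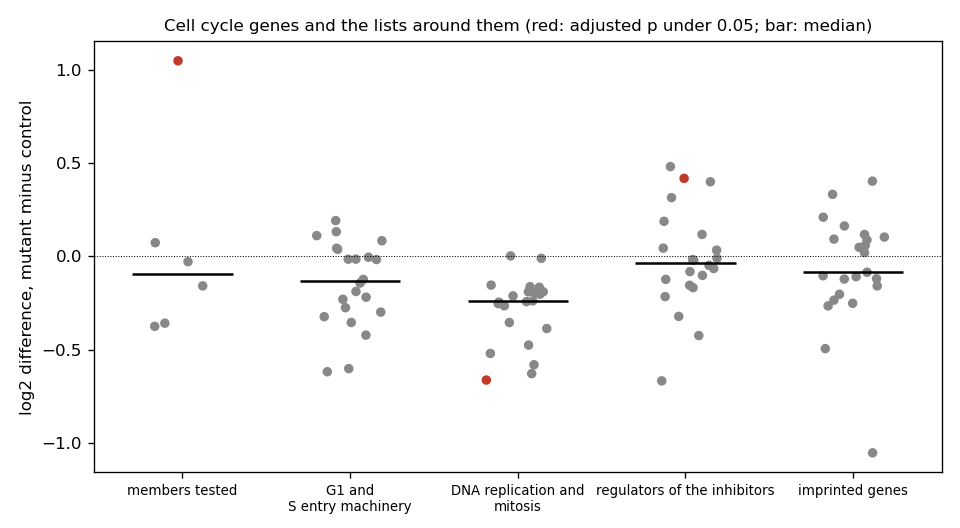
Log2 difference, mutant minus control, of each gene in the 6 tested members and 4 lists, with the median as a bar and calls in red. The calls are Cdkn2b at 1.05, Rrm2 at -0.66 and Klf4 at 0.42, and the replication and mitosis list has the lowest median, -0.24.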

How the data were processed

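The deposited table holds log2 values that the authors made with RMA (background correction, quantile normalization and probe set summary), per the submitters' processing notes, without a version. That step makes the arrays' distributions nearly equal and would hide a shift of most genes. The number of arrays limits the precision: the standard error of a difference had a median of 0.117 over genes. Of 45101 probe sets, 64 controls, 932 with several symbols and 9160 with none listed were not named, which left 34945. Through Entrez identifiers against RefSeq (GRCm38.p6) 0 symbols changed and 204 had no match. The brightest probe set stood for a gene, and the lowest 25% of genes were left out.

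The genotypes were tested by lmFit and eBayes of limma 3.58.1 under R 4.3.3 (2-sided, no covariate), a step tested on simulated data, and figures were drawn with matplotlib 3.10.9. The members, lists and alternatives were chosen with earlier results of these data known. Genes named are the members, Tgfbr2, the called genes of each list, up to 3 more by p, and the 3 nearest in pattern; any other is marked where it stands. Lists are described by counts and medians, with no test. Arrays with the same title number in both groups deviated together (correlations of 0.309, 0.105 and 0.206, each over 0.1). The title number was therefore used as a block in an alternative, not in the reported fit. The labels do not say what these numbers stand for, and whether the arrays are paired was not tested. The alternatives were no filter, the lowest 50% left out, the mean of probe sets, every probe set on its own, median centring, quantile normalization, trend and robust fitting, array weights, the replicate block, sex as a covariate, each array left out and an adjusted p under 0.1.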

Additional observations from a re-analysis of the deposited data

How the results depend on the processing

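Cdkn2b kept its direction in all 16 alternatives that gave it a value and its call in 13. The exceptions left out 1 array each, and over all arrays left out in turn its log2 difference was 0.959 to 1.17 and its adjusted p 0.00976 to 0.09999. With the lowest 50% of genes left out it was too dim to be tested. Cdkn2c passed without mutant array 1 and with array weights (log2 difference -0.448), and its range with 1 array left out was -0.452 to -0.301. Cdkn1b turned sign with the mean of its probe sets (-0.017) and array weights (-0.016), with a range of -0.037 to 0.148 when 1 array was left out. Cdkn2d turned sign with quantile normalization (0.0049) and array weights (0.0091), with a range of -0.093 to 0.017. Of the genes near 0, Cdk4 and Bmi1 turned sign with the mean of probe sets (0.0057 and 0.010) and quantile normalization (0.019 and 0.0049), with ranges of -0.062 to 0.084 and -0.187 to 0.094 when 1 array was left out, and Ccnd1 without mutant array 3 (range -0.024 to 0.240). Tgfbr2 turned sign without mutant array 1 (range -0.303 to 0.014 with 1 array left out). The number of members called was 0 with the lowest 50% left out, 2 with array weights, and 0 to 2 when 1 array was left out. The number of genes called, 292 as reported, was 151 with the lowest 50% left out, 1034 with array weights, 490 with the replicate block, 135 with the sex covariate, 549 at an adjusted p under 0.1, and 16 to 670 when 1 array was left out. The share called higher was 61.6% as reported, 48.9% without mutant array 2, 50% without mutant array 3 and 51.4% without control array 1. The replicate block changed no call of a member, and its effect on the other genes and lists is given with them. With 1 array left out, Rb1 ranged from -0.585 to -0.162 and Cdkn2a from 0.229 to 0.445. The cause of these changes was not tested. Of 872 recomputed log2 differences of genes, 719 kept direction and side of the threshold, and of 272 recomputed counts of called genes 167 stayed within 1.5 times the reported count. The recomputed differences include settings that leave a difference unchanged by design. Dim probe sets (Cdkn2a, the second of Rb1) limit what can be said of these genes.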
